A study of Danio rerio with 6 samples.

Results

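The keratins and the other structural genes of the epidermis were examined in *dgat2* mutant and wild-type zebrafish. The genes were chosen by name, with earlier results of these data known. Their symbol in the deposited gene table begins with krt, cyt1, evpl, dsp, dsc, pkp and a digit, cldn, agr1 or icn, or is ppl. The rule found 67 of 32520 genes. These were 21 keratins, 35 claudins, 2 plakins, 3 genes of the desmosome, the *agr1* gene with the 2 *icn* genes, and 3 genes that share only the letters of the rule. RNA was sequenced from 6 pools at 3 dpf, each of 6 embryos, with 1 homozygous *dgat2*sa13945 pool and 1 pool of wild-type (WT) siblings from each of clutches 2, 3 and 4. Both genotypes came from in-crosses of heterozygous parents and were sorted by yolk opacity and genotyped. The allele is a nonsense mutation from a chemical mutagenesis screen, so the mutant family may carry other mutations. Head and tail were cut off, and the tissue sequenced was the yolk sac with its yolk syncytial layer (YSL) and the muscle of the back, together with the skin that covers both.

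At this stage the skin of a zebrafish is a flat outer sheet, the periderm, over a layer of basal keratinocytes. Keratins are the intermediate filament proteins of these cells, and type I and type II chains pair to form the filament. Plakins tie keratin filaments to cell junctions and to the cell surface, desmosomal cadherins and plakophilins build the spot junctions on which the filaments end, and claudins are the membrane proteins of the tight junction that decide which ions pass between cells. *krt8* and *krt18* are known from simple, one-layered epithelia, and claudins outside the skin line gut, kidney, vessels and nerve. The members are therefore described by role, with the 17 keratins other than *krt8* and *krt18*, called the other keratins, apart from the 4 simple-epithelial ones, and the 7 claudins known from embryonic skin (*cldna*, *cldnb*, *cldne*, *cldnf*, *cldni*, *cldn7a* and *cldn7b*) apart from the 28 other claudins. The classes were drawn by name and role with earlier results of these data known, so a split by class is a description. Where each keratin is expressed was not tested. Not all of the other keratins need be skin keratins, and the simple-epithelial ones may be expressed in skin as well.

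The data show lower fitted values for most of the other keratins, plakins, skin claudins, *agr1* and *icn* genes. These did not reach the adjusted threshold for any single gene in edgeR. In the mutant pools the summed level of the other keratins was 16.8% lower than in WT, and 2 plakins, 6 of 7 skin claudins and all 3 *agr1* and *icn* genes had lower fitted values. The simple-epithelial keratins were not lower as a group, and the claudin-15 genes had higher fitted values. Levels here are relative to the rest of each library, which came from mixed tissue. Fewer skin cells, less RNA per skin cell and more RNA from other tissue therefore cannot be told apart.

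Libraries held 45958694 to 59166585 counts on genes, and every mutant library was deeper than every WT library. The *dgat2* transcript itself does not check the labels, since the allele does not remove it: it was at 21.7, 9.78 and 20.6 counts per 1000000 in mutant pools 2, 3 and 4 (each pool is named by its clutch) and at 28.3, 15.7 and 4.41 in WT. Of 11 epidermal markers measured, none was under 1 TPM, so skin RNA was present in all pools. Their summed level, in TPM (transcripts per 1000000, scaled for transcript length), was 5156 to 5541 in mutants and 5949 to 7123 in WT, but 5 of the 11 are themselves members. The other 6 had a median log2 fold change of -0.13, with 5 of the 6 lower. Muscle markers summed to 37076 to 40387 TPM in mutants and 39021 to 42512 in WT, with overlapping ranges. Lower fitted values were not limited to keratinocyte genes: all 5 markers of fin and dermal fibroblasts had them (median log2 fold change -0.20, summed TPM 637 to 747 in mutants and 680 to 909 in WT), as did 4 of 5 ionocyte markers (median -0.20, 56.2 to 61.8 TPM against 59.8 to 75.7). All 4 markers of the acinar pancreas had higher fitted values (median 0.79), with sums of 92.6 to 703 TPM in mutants and 86.2 to 500 in WT. With the clutch as a block in edgeR, 3 of the 4 acinar markers were higher at an unadjusted p under 0.05 (0 without the block), against 5.14% of all genes tested. In that fit 5 of the 11 epidermal markers were lower (2 without the block), against 3.05%. Of the 5, *krt4*, *krt5*, *cyt1* and *cldni* are members, and only *tp63* (edgeR p 0.0439 with the block) lies outside the rule. The 2 without the block, *krt4* and *cldni*, are both members, so these counts are not separate from the members. No marker of these lists passed the adjusted threshold in edgeR, and their part in the results was not tested.

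Keratins and *icn* were among the abundant transcripts of this tissue. Of the 67 members, 59 had a mean of at least 1 TPM, 32 of at least 10, 13 of at least 100 and 5 of at least 1000. The 5 were *krt4* with a mean of 3034 TPM, *icn* with 2680, *cyt1* with 1857, *krtt1c19e* with 1109 and *cyt1l* with 1094. *krt4* and *cyt1* are keratins of the outer sheet, *krtt1c19e* marks basal keratinocytes, and *icn* encodes ictacalcin, a calcium-binding S100 protein of fish skin. *krt4* was measured at 2460, 2783 and 2789 TPM in mutant pools 2, 3 and 4 and at 3399, 3571 and 3204 TPM in WT, with no overlap, whereas the TPM of *icn* overlapped between genotypes (2171, 2714 and 2623 in mutants, 2701, 3360 and 2511 in WT). Below them in level came *krt5* with a mean of 767 TPM, *icn2* with 551, *krt91* with 453, *krt17* with 247, *krt8* with 236, *krt92* with 227, *krt18a.1* with 196 and *cldn15la* with 140. At the other end, 8 members had a mean under 1 TPM. *cldnd*, *krt95*, *krt93* and *cldn10a* had no more than 4, 10, 15 and 7 counts in any library and were left out of the test by the filter on low counts, so that 63 members were tested.

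**Figure D1:**
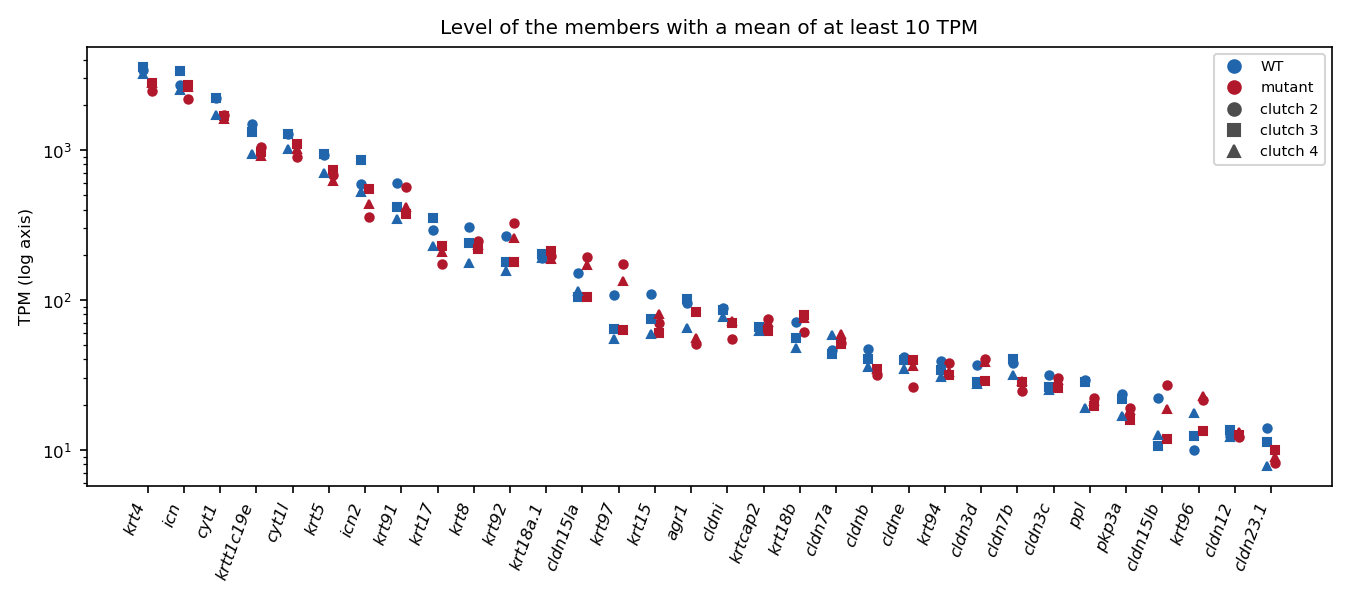
TPM on a log axis of the 32 members with a mean of at least 10 TPM, ordered by level, with WT pools in blue, mutant pools in red and a marker shape for each clutch. The level runs from 3034 TPM for *krt4* down to about 10, and the red points lie below the blue ones for *krt4* but mingle with them for most genes.

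Mutant and WT pools were compared gene by gene with edgeR's quasi-likelihood test on the estimated counts, with Benjamini-Hochberg adjustment over the 22762 genes tested. From here on, levels of single genes are in CPM, which are counts per 1000000 after TMM scaling (a scaling that sets aside the most changed genes). No member had an adjusted p under 0.05 in this test, neither higher in mutants (0 of 63, against 0.0132% of all genes tested) nor lower (0 of 63, against 0 of all genes). At an unadjusted p under 0.05, 3 members were higher (4.76%, against 3.21% of all genes) and 6 were lower (9.52%, against 1.99%). The share on the lower side was thus above the background and the share on the higher side close to it. The higher members were *cldn2*, *cldn15b* and *krt18b*, and the lower ones *evpla*, *cldn7b*, *krt4*, *krt17*, *cldni* and *cldnb*. All 6 lower members were other keratins, a plakin or skin claudins, and 2 of the 3 higher ones are other claudins. These counts moved with single libraries. On the higher side they were 7 without mutant pool 3 (11.1%, against 4.48% of all genes in that fit), 7 without WT pool 2 (11.1%, against 4.45%) and 5 without WT pool 4 (7.94%, against 2.73%). On the lower side they were 3 without mutant pool 2 (4.76%, against 1.53%), 3 without mutant pool 4 (4.76%, against 1.69%), 12 without mutant pool 3 (19.0%, against 2.27%) and 13 without WT pool 4 (20.6%, against 2.58%).

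Pools of the same clutch varied together. With the clutch as a block in the edgeR fit, 11 members were higher at an unadjusted p under 0.05 (17.5%, against 5.14% of all genes) and 12 were lower (19.0%, against 3.05%). The adjusted counts stayed at 0 in both directions, against 0.272% of all genes higher and 0.0659% lower. The 12 lower members comprised 5 other keratins (*krt4*, *krt5*, *krt17*, *krtt1c19e* and *cyt1*), 4 skin claudins (*cldna*, *cldnb*, *cldni* and *cldn7b*), *evpla*, *icn2* and *agr1*. The 11 higher ones comprised *krt92*, *krt96*, *krt97*, *krt18b*, *krt18a.2* and 6 other claudins (*cldn2*, *cldn3d*, *cldn15a*, *cldn15b*, *cldn15la* and *cldn15lb*). None of the 12 was a simple-epithelial keratin or a claudin from outside the skin list, and none of the 11 was a plakin, a skin claudin or an *icn* gene. Since the classes were drawn with earlier results known, this split is a description and not a test.

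DESeq2, the tool named in the study's methods, made a few calls. With transcript length offsets, 1 member was lower at an adjusted p under 0.05 (*evpla*, against 0.230% of the genes tested there) and 0 were higher (against 0.361%). With the clutch as a block as well, which was added after the data were seen, *evpla*, *krt17* and *icn2* were lower (against 0.368%) and *krt97* was higher (against 0.867%). At an unadjusted p under 0.05 the first of these fits had 4 members higher (against 2.96%) and 6 lower (against 2.09%), and the second had 10 higher (against 3.46%) and 11 lower (against 2.15%).

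Fitted values of all members leaned somewhat to the lower side, and the classes differed. The median log2 fold change was -0.01 over all genes tested and -0.08 over the 63 members. Of the members 25 were higher and 38 lower (60.3% lower, against 51.8% of all genes). The median of the members depended on single libraries, at -0.16 without mutant pool 3, -0.13 without WT pool 4, -0.05 without mutant pool 2, -0.01 without WT pool 3 and 0.01 without mutant pool 4. By class it was -0.17 for the 15 other keratins tested (5 higher, 10 lower), 0.19 for the 4 simple-epithelial keratins (3 higher, 1 lower) and -0.49 for the 2 plakins (both lower). It was -0.26 for the 7 skin claudins (1 higher, 6 lower), -0.37 for *agr1* and the *icn* genes (all 3 lower), -0.03 for the 3 desmosomal genes and 0.02 for the 26 other claudins tested (14 higher, 12 lower). Over all genes tested 51.8% were lower, so the other claudins with 46.2% lower were near the background in this share alone. Of the 26, 9 were higher in all 3 clutches (34.6%, against 14.6% of all genes) and 2 lower (7.69%, against 14.3%). With the clutch as a block in edgeR, 6 were higher at an unadjusted p under 0.05 (23.1%, against 5.14%) and 0 lower (against 3.05%).

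Within clutches the picture was alike. A total of 20 members were lower in the mutant pool than in the WT pool of the same clutch in all 3 clutches (31.7%, against 14.3% of all genes), and 13 were higher in all 3 (20.6%, against 14.6%). The 20 included 7 other keratins, 4 skin claudins, both plakins and all 3 *agr1* and *icn* genes, and the 13 included 9 other claudins. The 27 tested members of those 4 classes, which were put together with their values known and are given as a description, had median log2 differences of -0.31, -0.22 and -0.21 in clutches 2, 3 and 4, with 20, 20 and 21 of the 27 lower, where the median of all genes was 0.00, 0.00 and -0.01. With the 3 desmosomal genes added, the medians were -0.28, -0.21 and -0.17. These values depended on the scaling. In TPM the medians of the 27 were -0.51, -0.31 and -0.01, but the median of all genes was itself at -0.18, -0.09 and 0.20, and relative to it the 27 were at -0.32, -0.22 and -0.21. With CPM scaled by library size alone their medians were -0.39, -0.22 and -0.10, and relative to all genes -0.32, -0.22 and -0.20.

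**Figure D2:**
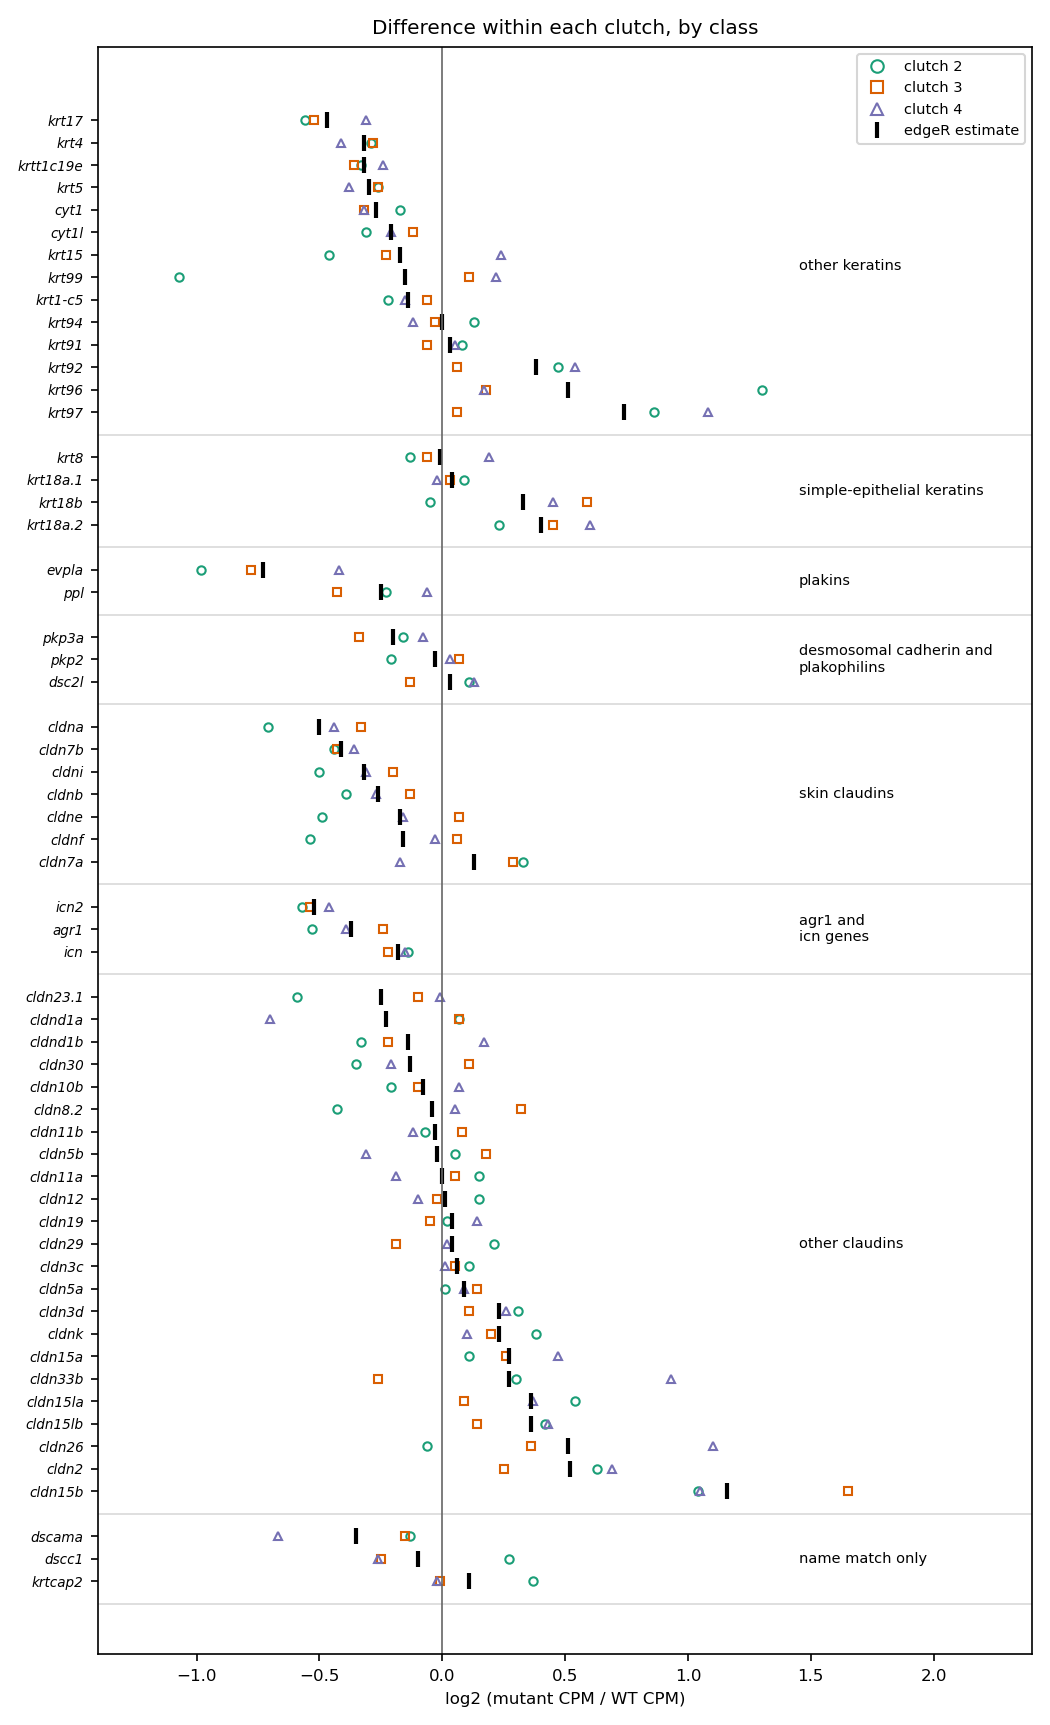
Log2 ratio of mutant to WT CPM within clutches 2, 3 and 4 (open symbols) and the edgeR estimate (black bar) for the tested members with a mean of at least 1 TPM, grouped by class. Symbols of all 3 clutches lie left of 0 for 7 other keratins, both plakins and the *agr1* and *icn* genes, and on both sides of 0 for many other claudins.

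Summed over the class, the other keratins stood at 16045, 17380 and 14648 CPM in mutant pools 2, 3 and 4, and at 18756, 20905 and 18139 CPM in WT. All 3 mutant sums lay below all 3 WT sums, and the log2 differences within clutches were -0.23, -0.27 and -0.31. *krt4* alone made up 0.640%, 0.787% and 0.704% of all counts in mutants and 0.825%, 0.950% and 0.869% in WT. All keratins together, the simple-epithelial ones included, took 1.65%, 1.84% and 1.62% of the counts in mutants and 2.02%, 2.18% and 1.83% in WT. Without *krt4* the log2 ratio was still -0.22, with differences within clutches of -0.18, -0.26 and -0.21. The sums without it overlapped between genotypes, at 9430, 9524 and 7899 CPM in mutants and 10676, 11396 and 9152 CPM in WT. In TPM the sums were 8161, 8214 and 8102 in mutants and 10717, 10451 and 8468 in WT, and the difference within clutch 4 was -0.06.

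**Figure D3:**
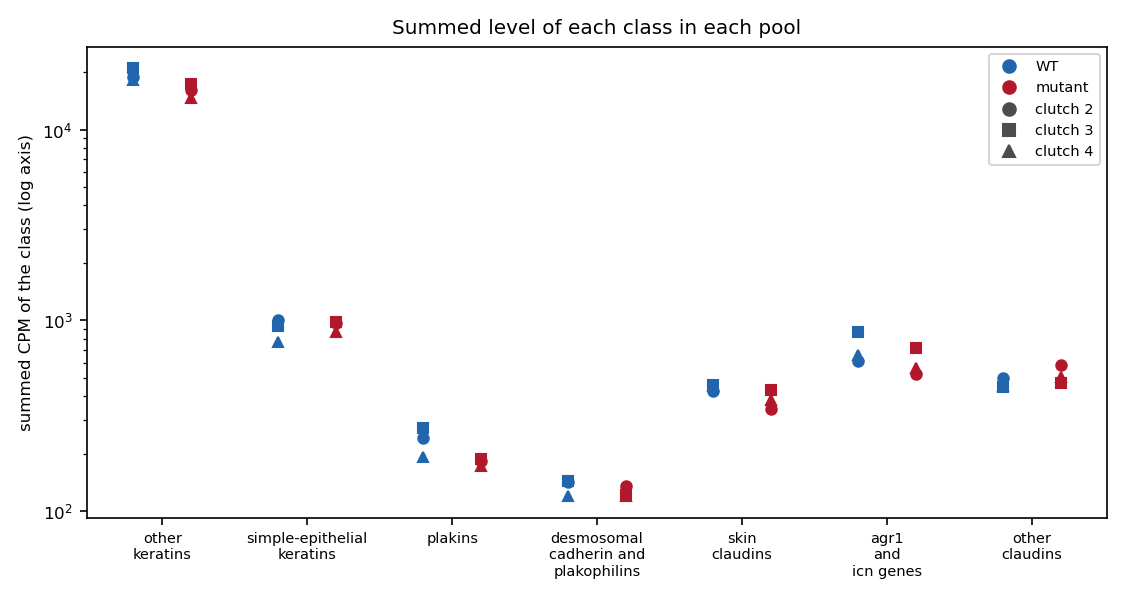
Summed CPM of the members of each class on a log axis, with WT pools in blue and mutant pools in red, and a marker shape for each clutch. The 3 mutant sums lie below the 3 WT sums for the other keratins (14648 to 17380 against 18139 to 20905) and the plakins (173 to 189 against 193 to 272), and the genotypes overlap in the other classes.

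*krt4* (ENSDARG00000017624), the most abundant member, was measured at 6615, 7856 and 6748 CPM in mutant pools 2, 3 and 4 and at 8080, 9509 and 8987 CPM in WT. The groups did not overlap, and clutch 3 was the highest in both genotypes. The log2 fold change was -0.32 (SE 0.11, 95% interval -0.58 to -0.07), which is 20.2% lower, with an edgeR p of 0.0197 and an adjusted p of 0.868. *cyt1* (ENSDARG00000092947), its type I counterpart in the outer sheet, was at 2689, 2790 and 2284 CPM in mutants and 3030, 3482 and 2846 CPM in WT, again without overlap. Its log2 fold change was -0.27 (SE 0.12, adjusted edgeR p 0.951). *krt17* was at 246, 338 and 266 CPM in mutants and 361, 485 and 330 CPM in WT. Here the mutant pool of clutch 3 reached the level of the WT pool of clutch 4, but the mutant was lower within every clutch, by log2 differences of -0.56, -0.52 and -0.31. The log2 fold change of *krt17* was -0.47 (SE 0.17, adjusted edgeR p 0.890; -0.28 without WT pool 3), and the adjusted p was 0.00620 in DESeq2 with offsets and the clutch as a block, within a range of 0.00620 to 1.0 over all alternatives.

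*krt5*, *krtt1c19e* and *cyt1l*, chosen for naming after their values were seen because they follow next in level, had log2 fold changes of -0.30 (SE 0.15), -0.32 (SE 0.15) and -0.21 (SE 0.12). *krt5* is a keratin of the outer sheet, and it was lower in the mutant of every clutch, at 1772, 2019 and 1452 CPM against 2127, 2424 and 1889 CPM in WT. The basal keratin *krtt1c19e* was at 1634, 1616 and 1303 CPM in mutants and 2054, 2079 and 1540 CPM in WT. The adjusted edgeR p was 0.989 for *krt5* and 0.971 for *krtt1c19e*. Lower values were thus found for this basal keratin as well as for keratins of the outer sheet, and other basal keratins were not singled out. Reads of *krtt1c19e*, *krt5* and *cyt1* were divided among similar genes, as described below, so their single values are less certain. The size of the difference between the layers was not tested.

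Not all of the other keratins were lower. *krt97* (ENSDARG00000000212) was at 261, 99.7 and 182 CPM in mutant pools 2, 3 and 4 and at 143, 95.5 and 86.3 CPM in WT. Clutches 2 and 4 differed strongly and clutch 3 hardly at all, with log2 differences of 0.86, 1.08 and 0.06. The log2 fold change was 0.74 (SE 0.33, adjusted edgeR p 0.951) and 0.38 without mutant pool 2, and the adjusted p over the alternatives ran from 0.0210 in DESeq2 with offsets and the clutch as a block to 1.0. *krt96* was at 31.0, 20.0 and 29.4 CPM in mutants and 12.6, 17.7 and 26.2 CPM in WT, with a log2 fold change of 0.51 (SE 0.27, adjusted edgeR p 1.0) that was 0.29 without WT pool 2 and 0.82 without WT pool 4. *krt92*, named after its values were seen, followed the pattern of *krt97*, at 495, 285 and 358 CPM in mutants and 358, 273 and 247 CPM in WT (log2 fold change 0.38, SE 0.21). *krt91*, also named after its values were seen, had a log2 fold change of 0.03 (SE 0.18) that changed sign when a library was left out.

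**Figure D4:**
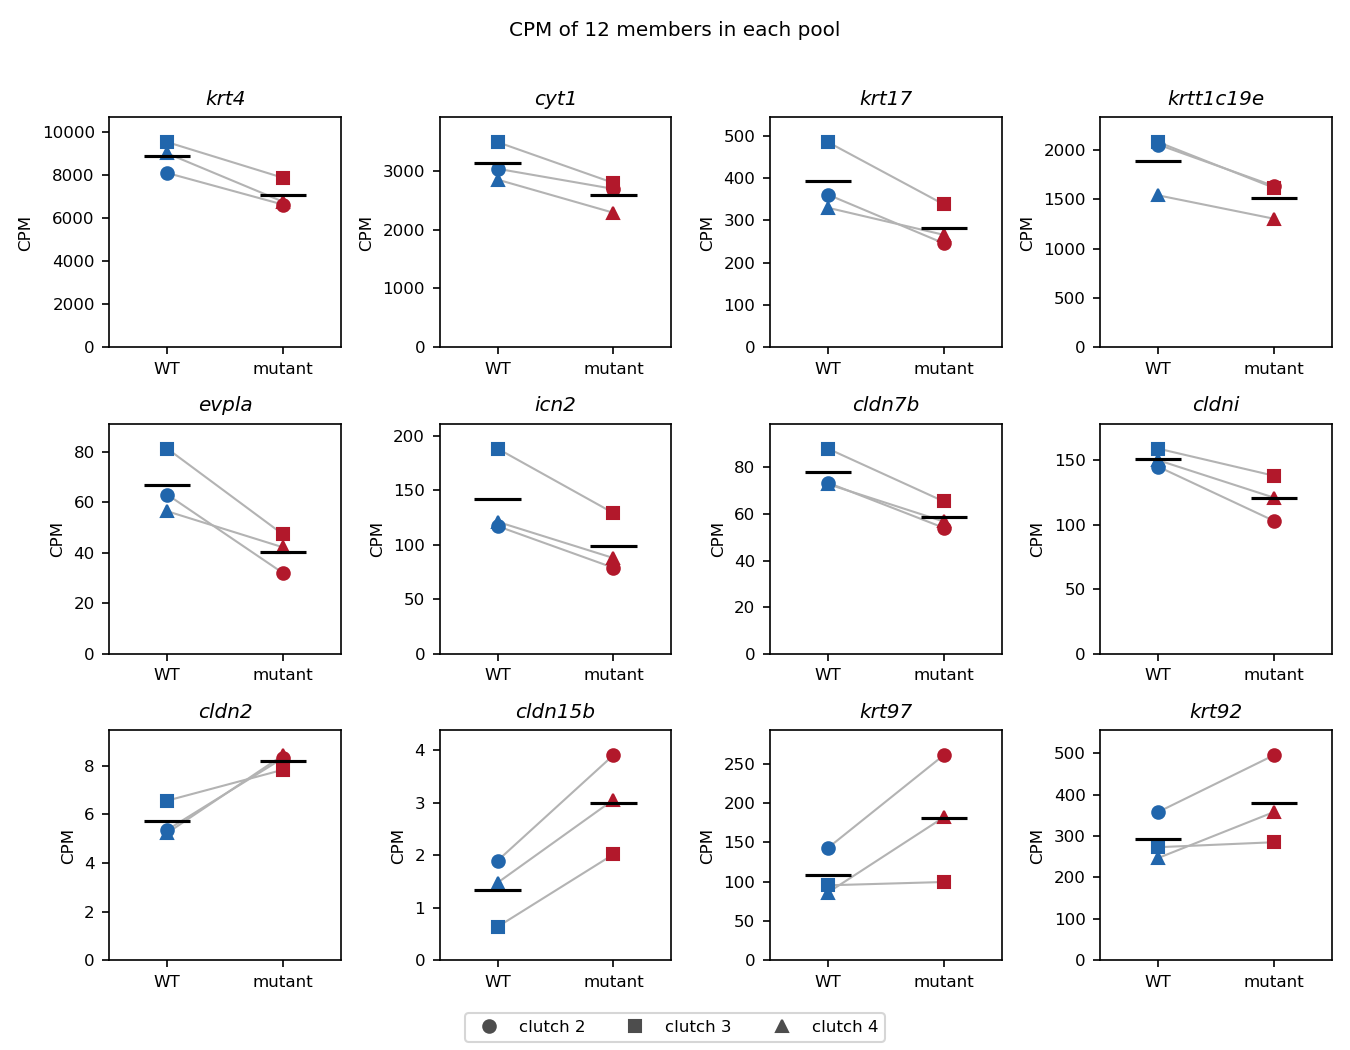
CPM of 12 members in each pool, with WT on the left and mutant on the right of each panel, lines joining the pools of a clutch and black bars at the group means. All lines slope down for *krt4*, *cyt1*, *krt17*, *krtt1c19e*, *evpla*, *icn2*, *cldn7b* and *cldni*, and up for *cldn2*, *cldn15b*, *krt97* and *krt92*, the last 2 hardly in clutch 3.

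*krt96* and *krt97* were highest in mutant pools 2 and 4, and fitted values of gut genes were higher in mutants as well. All 5 intestinal markers had such values, with a median log2 fold change of 0.62. Their within-clutch medians were 1.01, 0.09 and 0.48 in clutches 2, 3 and 4. At an unadjusted edgeR p under 0.05, 1 of them was higher (against 3.21% of all genes tested), and 0 at an adjusted one. With the clutch as a block, 5 were higher at an unadjusted p under 0.05 (against 5.14%), and none at an adjusted one. Their summed level was 1442 to 2521 TPM in mutants and 949 to 1397 TPM in WT, and none was under 1 TPM. *vil1*, the microvillus protein villin, was at 510, 162 and 368 CPM in mutants and 254, 162 and 199 CPM in WT (adjusted edgeR p 0.979), with the same value in both pools of clutch 3. *krt96* had log2 differences of 1.30, 0.18 and 0.17 in clutches 2, 3 and 4, so unlike *krt97* it hardly differed in clutch 4. Whether the amount of gut tissue plays a part in the values of *krt92*, *krt96* and *krt97* was not tested.

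The simple-epithelial keratins did not share the lower values of the other keratins. *krt8* was at 583, 538 and 493 CPM in mutants and 637, 560 and 431 CPM in WT, a log2 fold change of -0.01 (SE 0.15, 95% interval -0.35 to 0.33) whose sign changed with the settings. *krt18a.1* was at 254, 267 and 237 CPM in mutants and 238, 261 and 240 CPM in WT (log2 fold change 0.04, SE 0.09, interval -0.18 to 0.25). The log2 difference of -0.32 seen for *krt4* lies within the interval of *krt8* and outside that of *krt18a.1*. *krt18b* was at 115, 157 and 128 CPM in mutants and 119, 104 and 93.9 CPM in WT, with a log2 fold change of 0.33 (SE 0.14, edgeR p 0.0439, adjusted p 0.951), although clutch 2 gave -0.05 and the value was 0.20 without mutant pool 3. *krt18a.2*, the least abundant of the 4, was higher in all 3 clutches, with 16.8, 13.8 and 13.4 CPM against 14.3, 10.1 and 8.83 CPM (log2 fold change 0.40, SE 0.19, adjusted edgeR p 0.979, from 0.26 without WT pool 4 to 0.63 without WT pool 2). The class sum was 969, 976 and 871 CPM in mutants and 1009, 935 and 774 CPM in WT.

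Keratin genes lie in groups along the chromosomes, and neighbours could differ in sign. All 67 members were found by symbol in the RefSeq annotation of GRCz12tu, which is not the assembly of the deposited files and was used only for chromosome and order. A total of 32 tested members fell into 9 groups in which neighbours were no more than 5 places apart in the order of protein-coding genes. On chromosome 19, in gene order, the log2 fold changes were -0.32 for *krtt1c19e*, 0.38 for *krt92*, -0.21 for *cyt1l*, -0.27 for *cyt1*, -0.47 for *krt17* and 0.03 for *krt91*, so *krt92* stood among genes with lower values. On chromosome 23 they were -0.30 for *krt5*, -0.01 for *krt8*, 0.04 for *krt18a.1* and 0.40 for *krt18a.2*. On chromosome 6, *krt4* at -0.32 lay beside *krt18b* at 0.33, and on chromosome 22 the 2 neighbours *krt97* and *krt96* both had higher values. A group on chromosome 11, named after its values were seen, held the tested keratins *krt94*, *krt98*, *krt15* and *krt99*, with log2 fold changes from -0.22 to 0.00.

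**Figure D5:**
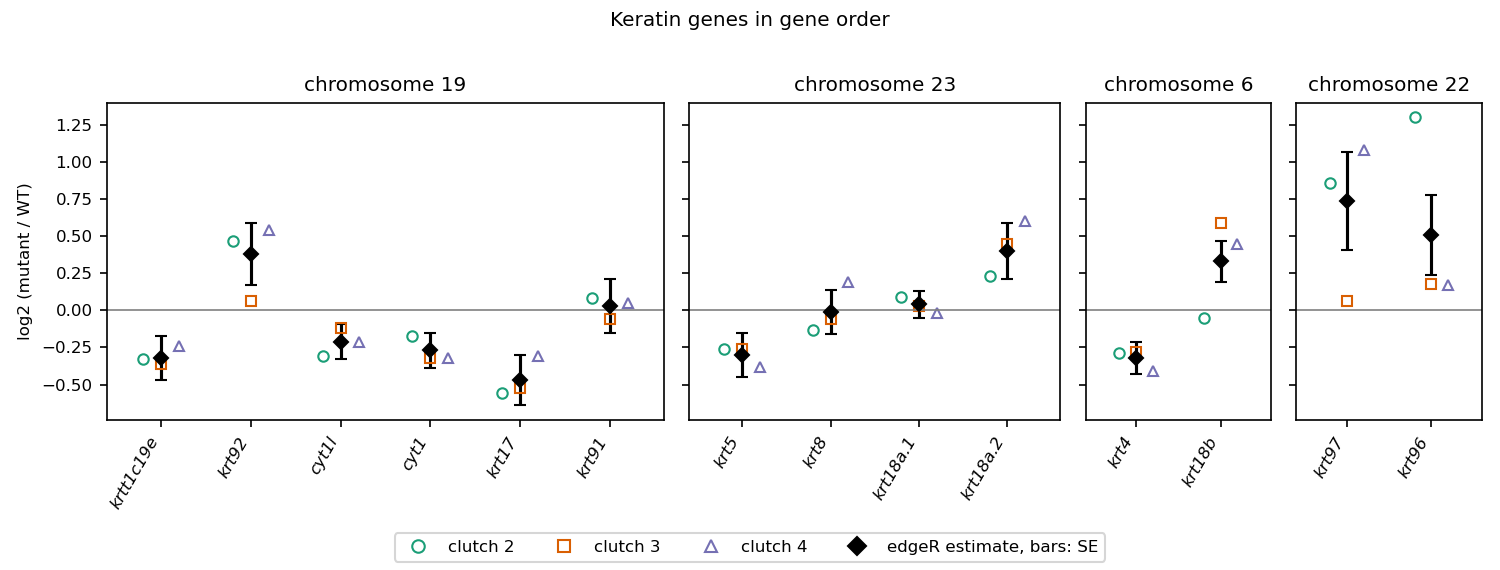
Log2 ratio of mutant to WT for the keratins that neighbour each other on chromosomes 19, 23, 6 and 22, in gene order, with the edgeR estimate (diamonds, bars are SE) and the CPM ratio within each clutch (open symbols). *krt92* at 0.38 stands between *krtt1c19e* at -0.32 and *cyt1l* at -0.21 on chromosome 19, and *krt97* at 0.74 lies beside *krt96* at 0.51 on chromosome 22.

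Reads that fit several similar keratins were divided among them by the authors' quantifier, which leaves fractions of a read. Fractions (a distance of over 0.001 from a whole number) were present in all 6 libraries for 10 members, namely 9 other keratins and *cldna*. This is 15.9% of the tested members, against 15.8% of all genes tested. The 9 were *krt5*, *krt96*, *krt97* and all 6 keratins of the chromosome 19 group, and the values of single genes with divided reads are less certain than their sum. The sum of the 6 was 7174, 7211 and 6055 CPM in mutant pools 2, 3 and 4 and 8163, 8667 and 6982 CPM in WT, with log2 differences within clutches of -0.19, -0.27 and -0.21. *krt96* and *krt97* together were at 292, 120 and 211 CPM in mutants and 156, 113 and 113 CPM in WT.

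Among the plakins, *evpla* (ENSDARG00000019808), which encodes envoplakin, had the smallest p of all members. It was at 32.0, 47.3 and 42.2 CPM in mutant pools 2, 3 and 4 and at 63.1, 81.3 and 56.5 CPM in WT. The groups did not overlap, and within clutches the log2 differences were -0.98, -0.78 and -0.42. The log2 fold change was -0.73 (SE 0.18, 95% interval -1.13 to -0.32), which is 39.5% lower, with an edgeR p of 0.00332 and an adjusted p of 0.484. The adjusted p was 0.0424 in DESeq2 with transcript length offsets and 0.0234 in DESeq2 without them, and ran from 4.19e-04 to 1.0 over all alternatives. *ppl*, which encodes periplakin, the partner of envoplakin, was at 152, 142 and 131 CPM in mutants and 178, 191 and 136 CPM in WT. In CPM it was lower in every clutch, by only -0.06 in clutch 4, and its log2 fold change was -0.25 (SE 0.14, adjusted edgeR p 1.0). In TPM the sums of *evpla* and *ppl* overlapped between genotypes, at 25.2, 24.1 and 25.8 in mutants and 36.4, 36.1 and 24.3 in WT. In zebrafish these 2 proteins act with keratins in the microridges, the small folds on the surface of the outer sheet.

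Of the desmosomal members, *dsc2l* was close to level. In CPM *pkp3a* was lower in the mutant of every clutch, by log2 differences of -0.16, -0.34 and -0.08. *pkp3a*, a plakophilin of the desmosome's plaque, was at 82.5, 73.8 and 73.6 CPM in mutants and 92.4, 93.6 and 78.0 CPM in WT (log2 fold change -0.20, SE 0.11, adjusted edgeR p 1.0). *dsc2l*, a desmocollin, was at 48.3, 41.4 and 42.0 CPM in mutants and 44.9, 45.4 and 38.4 CPM in WT (log2 fold change 0.03, SE 0.11, interval -0.22 to 0.29). The sum of the 3 genes had a log2 ratio of -0.12, and of 0.03 without *pkp3a*. The 2 rows of the table named DSP in capitals were not matched by the rule and were not used.

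Among the skin claudins, *cldn7b* (ENSDARG00000014047) was at 54.0, 65.3 and 56.7 CPM in mutant pools 2, 3 and 4 and at 73.3, 87.9 and 72.7 CPM in WT, with no overlap. Its log2 fold change was -0.41 (SE 0.12, 95% interval -0.68 to -0.14, edgeR p 0.00790, adjusted p 0.675), and the 3 clutches gave -0.44, -0.43 and -0.36. The gene lies on chromosome 10, as *dgat2* does. Linked variants of the mutant family cannot be told apart from the allele there, and 4 of the 67 members are on that chromosome. *cldni* was at 103, 138 and 121 CPM in mutants and 145, 159 and 150 CPM in WT (log2 fold change -0.32, SE 0.12, adjusted edgeR p 0.893), and *cldnb*, a claudin of the skin and the lateral line, was at 32.7, 37.6 and 32.2 CPM against 42.9, 41.3 and 38.8 CPM (log2 fold change -0.26, SE 0.10, adjusted edgeR p 0.915). Neither gene overlapped between genotypes. *cldn7a* went the other way, at 84.3, 86.7 and 87.2 CPM in mutants and 66.8, 70.7 and 98.3 CPM in WT, and overlapped because of the WT pool of clutch 4 (log2 fold change 0.13, SE 0.15). Of the remaining 3, which were named after their values were seen, *cldna* had a log2 fold change of -0.50 (SE 0.24), *cldne* of -0.17 (SE 0.16) and *cldnf* of -0.16 (SE 0.17).

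In CPM the secreted and calcium-binding members had the same sign in all clutches. In TPM *icn* was higher in the mutant of clutch 4 (2623 against 2511), and the class sum there had a log2 difference of 0.01. *icn2*, a second ictacalcin gene beside *icn* on chromosome 16, was at 78.9, 129 and 87.8 CPM in mutant pools 2, 3 and 4 and at 117, 188 and 121 CPM in WT. The pools of clutch 3 were high in both genotypes, so the groups overlapped although the mutant was lower in each clutch by nearly the same amount (log2 differences -0.57, -0.54 and -0.46). The log2 fold change was -0.52 (SE 0.23, adjusted edgeR p 0.951) and -0.27 without WT pool 3, and the adjusted p was 0.0949 with the clutch as a block in edgeR and 0.00146 in DESeq2 with offsets and the block, within a range of 0.00146 to 1.0 over the alternatives. *icn* differed less, at 416, 546 and 452 CPM in mutants and 457, 637 and 501 CPM in WT (log2 fold change -0.18, SE 0.15). *agr1*, of the anterior gradient family of secretory-pathway proteins and named after its values were seen, was at 27.1, 42.3 and 26.1 CPM in mutants and 39.3, 50.0 and 34.2 CPM in WT (log2 fold change -0.37, SE 0.21, adjusted edgeR p 1.0).

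The clutch itself was a strong source of variation in the skin genes. For 38 of the 63 tested members the same clutch was the highest in both genotypes (60.3%, against 44.8% of all genes tested). Clutch 3 was that clutch for 22 members (34.9%, against 14.1%), among them all 3 *agr1* and *icn* genes, 6 of 15 other keratins and 3 of 7 skin claudins. Clutch 2 was highest in both genotypes for 14 members (22.2%, against 18.1%), and 8 of those were other claudins. Clutch 4 was highest in both for 2 members (3.17%, against 12.6%). Clutch 3 was the lowest in both genotypes for 10 members (15.9%, against 13.5%), which included 8 of the 26 other claudins and none of the 15 other keratins.

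*cldn15b* (ENSDARG00000101109), one of the other claudins, had the largest positive log2 fold change of the members, followed by *krt97* and *cldn2*. It was at 3.91, 2.02 and 3.06 CPM in mutant pools 2, 3 and 4 and at 1.90, 0.641 and 1.48 CPM in WT. The mutant was higher in each clutch by log2 differences of 1.04, 1.65 and 1.05, the groups did not overlap, and the log2 fold change was 1.16 (SE 0.41, edgeR p 0.0209, adjusted p 0.874). *cldn2* (ENSDARG00000044387), whose mammalian counterpart forms cation pores in leaky epithelia, was at 8.32, 7.84 and 8.44 CPM in mutants and 5.37, 6.57 and 5.24 CPM in WT, without overlap (log2 fold change 0.52, SE 0.15, edgeR p 0.00705, adjusted p 0.665). Not overlapping on the higher side was found for these 2 of 63 members (3.17%, against 5.14% of all genes), and on the lower side for 8 (12.7%, against 4.65%). The 8 were *krt4*, *cyt1*, *krt1-c5*, *evpla*, *cldnb*, *cldni*, *cldn7b* and *cldng*. Of these, *cldng* and *krt1-c5* were named after their values were seen and were not followed over the alternatives. *cldng* had only 12 to 26 counts per library (log2 fold change -0.59, SE 0.45), and *krt1-c5* differed little (log2 fold change -0.14, SE 0.14).

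*cldn15la*, a claudin of the intestinal epithelium and the claudin with the highest mean TPM, was at 160, 91.6 and 127 CPM in mutants and 110, 86.3 and 98.4 CPM in WT (log2 fold change 0.36, SE 0.19, adjusted edgeR p 1.0). Without mutant pool 2 the log2 fold change was 0.15, and without mutant pool 3 it was 0.55. *cldn15la* is 1 of the 5 intestinal markers. *cldn15a* was at 38.8, 35.4 and 36.2 CPM in mutants and 36.0, 29.6 and 26.0 CPM in WT (log2 fold change 0.27, SE 0.13, adjusted edgeR p 0.989, and 0.16 without WT pool 4), and *cldn3d* at 78.6, 58.4 and 66.9 CPM against 63.3, 54.3 and 55.8 CPM (log2 fold change 0.23, SE 0.13). For *cldn15lb*, named after its values were seen, clutch 2 was by far the highest in both genotypes, with 45.5, 20.1 and 28.8 CPM in mutants and 34.0, 18.2 and 21.3 CPM in WT (log2 fold change 0.36, SE 0.32). All 4 claudin-15 genes were higher in the mutant of every clutch, as the intestinal markers were in their within-clutch medians. Where each of the 4 is expressed was not tested, nor was the part of the amount of gut tissue. *cldn3c*, the neighbour of *cldn3d* and *cldnb* on chromosome 21, had a log2 fold change of 0.06 (SE 0.09), so that 3 adjacent genes gave 0.06, 0.23 and -0.26. The sum over the 28 other claudins was 586, 471 and 508 CPM in mutants and 502, 447 and 451 CPM in WT, a log2 ratio of 0.16, and of 0.10 without *cldn15la*.

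The 3 genes matched only by their letters are not known as structural genes of skin. *krtcap2*, a subunit of the enzyme that adds sugar chains in the endoplasmic reticulum, was at 44.9, 39.3 and 38.6 CPM in mutants and 34.8, 39.6 and 39.2 CPM in WT (log2 fold change 0.11, SE 0.11). *dscc1*, a DNA replication and cohesion factor, had a log2 fold change of -0.10 (SE 0.17). *dscama*, a neural adhesion gene on chromosome 10 named after its values were seen, had -0.35 (SE 0.21).

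Other genes of the same structures, from lists compiled by known role with earlier results of these data known, were read in the same fit. Of 74 symbols, 60 were tested, among them the 6 epidermal markers outside the rule given earlier, so these sets overlap. None of the 60 had an adjusted edgeR p under 0.05 in the fit without the block. With the block *frem2a* and *anxa1c*, described below, were lower at that threshold, against 0.0659% of all genes. At an unadjusted p under 0.05, 0 were higher (against 3.21% of all genes) and 8 lower (against 1.99%), and with the clutch as a block 1 was higher (against 5.14%) and 12 lower (against 3.05%). Their fitted values were lower for 41 and higher for 19, with a median log2 fold change of -0.14. All 9 genes of hemidesmosomes and basal anchoring, which fix the basal keratinocytes to the basement membrane, had lower fitted values, with a median of -0.19. Among them *frem2a*, a basement membrane protein of the embryonic skin, was at 15.0, 33.6 and 19.9 CPM in mutants and 42.8, 52.4 and 46.6 CPM in WT, without overlap (log2 fold change -1.05, SE 0.26, adjusted edgeR p 0.490, and 0.0441 with the block). *col17a1a*, the transmembrane collagen of the hemidesmosome, was at 177, 162 and 157 CPM in mutants and 266, 198 and 199 CPM in WT (log2 fold change -0.42, SE 0.13).

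Of 19 further genes of the periderm and skin surface, 13 had lower and 6 higher fitted values, with 5 lower at an unadjusted edgeR p under 0.05 (against 1.99% of all genes). With the block 1 was higher and 7 were lower (against 5.14% and 3.05%). One of the 5 was *anxa1c*, an annexin, at 75.6, 136 and 88.9 CPM in mutants and 128, 219 and 147 CPM in WT (log2 fold change -0.72, SE 0.26, adjusted edgeR p 0.874, and 0.0338 with the block). The genes of cell adhesion were closer to level. Partners of the desmosome and adherens junction had a median log2 fold change of -0.04 (3 higher, 5 lower), and E-cadherin, *cdh1*, was at 115, 128 and 121 CPM in mutants and 111, 125 and 105 CPM in WT (log2 fold change 0.10, SE 0.10). Tight junction partners also had a median of -0.04 (5 higher, 5 lower). Of 14 regulators of the epidermis 5 were higher and 9 lower, with a median of -0.13, and *tp63*, the master regulator of basal keratinocytes, had a log2 fold change of -0.24 (SE 0.13, adjusted edgeR p 1.0).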

How the data were processed

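After trimming and removal of ribosomal RNA reads, the authors used STAR 2.7.9a (GRCz11, Ensembl 110) and Salmon 1.10.1 within nf-core/rnaseq 3.12.0. The deposited estimated counts carry no depth scaling, and the deposited TPM values were scaled by the authors for transcript length and depth. The kit does not mark strand, so overlapping and antisense genes share reads. Counts were rounded and compared by the quasi-likelihood test of edgeR 4.0.16 (R 4.3.3), with TMM, filterByExpr and no term but genotype. SE is the absolute log2 fold change over the root of the F statistic. The method was tested on simulated data, with changes larger than the edgeR value of any tested member and without a clutch effect. That test does not measure the power for differences of the size seen here.

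The clutch numbers in the labels mark siblings of 1 clutch. Deviations from the genotype mean were correlated between the 2 pools of a clutch (0.438, 0.396 and 0.195 across genes). A fit with the clutch as a block is therefore given for the counts of members, for some gene lists and for some single genes. P-values of the fit without the block set a difference against the spread between pools of a genotype, clutch differences included. Those with the block set it against the spread that remains once clutch differences are taken out. SE and intervals of single genes are from the fit without the block, so they also hold clutch differences. For *cldn15lb* the SE was 0.32 without and 0.11 with the block, and for *cldn2* it was 0.15 in both. Alternatives were DESeq2 1.42.0 with and without length offsets, other factors, no filter, limma 3.58.1 on log2(TPM + 1) or log2(TPM + 0.1) for genes at 1 TPM or more in at least 3 libraries, thinning, and leaving out each library. Named members were the 8 with the smallest p in each direction and the 2 with the highest mean TPM in each class, unless stated. The members, classes and lists were chosen with earlier results of these data known. Sequences were not used here.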

Additional observations from a re-analysis of the deposited data

How the results depend on the processing

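Thinning to the smallest library left the counts of members at an adjusted p under 0.05 at 0. Of 646 log2 fold changes computed for 38 named genes under the alternatives, 627 kept their sign and side of the threshold, 6 passed the adjusted threshold in DESeq2 (*evpla*, *krt17*, *icn2* and *krt97*) and 13 turned sign, and 32 genes never turned. The median of all genes stayed between -0.02 and 0.00 in every fit, and that of the members ran from -0.16 to 0.01.

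With the clutch as a block, 11 members were higher and 12 lower at an unadjusted p under 0.05, and the pairing changed no adjusted call of a member in edgeR, while *frem2a* and *anxa1c*, which are no members, passed with it. DESeq2 on rounded counts and DESeq2 with offsets each called 1 member lower at an adjusted p under 0.05. With offsets and the replicate block DESeq2 called 1 higher and 3 lower, and at an unadjusted p 10 higher and 11 lower. Of 59 members in limma, 1 was higher and 6 were lower at an unadjusted p under 0.05 with either pseudocount. The share over all genes is not given for limma, so these counts are not read further. When libraries were left out in turn, 2 to 7 members were higher and 3 to 13 lower. For most of these shifts the cause was not tested.

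The plakin sum moved to a log2 ratio of -0.73 without *ppl*, where *evpla* is left alone, and the desmosomal sum to 0.03 without *pkp3a*. The signs that turned were of 6 genes. Leaving out single libraries, *krt8* ranged from -0.16 to 0.12, *krt91* from -0.17 to 0.19, *dsc2l* from -0.04 to 0.08, *krt18a.1* from -0.01 to 0.08, *dscc1* from -0.23 to 0.03 and *cldn15lb* from -0.0025 to 0.67. *krt8* was also at 0.0021 with the block and at 0.01 in DESeq2 with offsets and block.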
